A study of Homo sapiens with 10 samples.

Results

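The integrated stress response is the pathway by which cells answer a shortage of amino acids, unfolded protein in the endoplasmic reticulum, heme deficiency or mitochondrial stress. The 10 genes described here were taken by symbol, matched to Ensembl identifiers through GENCODE. They are the kinase genes EIF2AK1 (ENSG00000086232), EIF2AK3 (ENSG00000172071) and EIF2AK4 (ENSG00000128829), the phosphatase subunit gene PPP1R15A (ENSG00000087074), and the transcription factor genes ATF4 (ENSG00000128272) and DDIT3 (ENSG00000175197). The other 4 are the ATF4 target genes TRIB3 (ENSG00000101255), CHAC1 (ENSG00000128965), SESN2 (ENSG00000130766) and DDIT4 (ENSG00000168209). They are 10 of 63677 gene identifiers in the count files, and all 10 were among the 16756 genes with enough counts to be tested. RNA of RS4;11 cells was sequenced, an established line of leukemic B-cell precursors with a KMT2A rearrangement. VENins lines, insensitive to venetoclax (VEN, an inhibitor of the anti-apoptotic protein BCL-2), had been cultured in VEN raised step by step to 100 nM over 8 months. VENsens lines had received the solvent DMSO over the same time. There were 5 lines per condition and 1 library per line, with 20631907 to 28323643 counts on genes. All 10 lines were raised from the same cell line, and per the study's methods VENins lines stayed in VEN until it was removed by washing ahead of an assay.

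In this pathway, kinases sense different stresses and phosphorylate the alpha subunit of the initiation factor eIF2. Translation of most mRNAs then falls, while the mRNA of ATF4, with short reading frames ahead of its coding sequence, is translated more. ATF4 and the factor CHOP, encoded by DDIT3, switch on genes for amino acid supply, redox balance and, when the stress persists, cell death, and PPP1R15A directs the phosphatase that ends the signal. RNA counts measure the transcripts of these genes and neither the phosphorylation of eIF2 nor the translation of ATF4. In bulk RNA, fewer expressing cells and less RNA per cell cannot be told apart.

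Promoters in RefSeq were matched for 9 of the 10 genes, all but EIF2AK1, and 3 short motifs were searched on both strands in the 250 bases before the annotated start. TGATGNAA is a core of the composite element bound by C/EBP and ATF factors, TGACGTCA is the palindromic cAMP response element, and TGACTCA is the element of AP-1 factors. No promoter of the 9 held more than 1 of the motifs. TGATGNAA occurred in 1 of the 9, CHAC1, against 3.89% of the 27305 genes with a promoter of this length, and in 11 of 83 other genes of the pathway lists (13.3%), among them ASNS, ATF3, CEBPG and JDP2. TGACGTCA occurred in PPP1R15A, against 2.03% of all promoters, and in none of the 83. TGACTCA occurred in DDIT3, against 5.19% of all promoters, and in 4 of the 83 (4.82%). SESN2 held none of the 3 motifs. It is shown beside CHAC1 because these genes were the 1 pair of members called by Pearson's r over the lines. That call was not kept by Spearman's rho or in the other alternatives tried. The sequences run 5′ to 3′ toward the start in build GRCh38.p14, with the matched motif in capitals. A match describes letters and does not show that a factor binds there.
CHAC1, chr15:40953221-40953470, plus strand: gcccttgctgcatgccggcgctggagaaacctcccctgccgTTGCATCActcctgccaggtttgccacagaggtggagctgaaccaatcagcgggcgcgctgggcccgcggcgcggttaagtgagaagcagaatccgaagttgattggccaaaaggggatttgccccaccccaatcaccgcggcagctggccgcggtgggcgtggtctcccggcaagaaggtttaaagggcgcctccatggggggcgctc
SESN2, chr1:28259268-28259517, plus strand: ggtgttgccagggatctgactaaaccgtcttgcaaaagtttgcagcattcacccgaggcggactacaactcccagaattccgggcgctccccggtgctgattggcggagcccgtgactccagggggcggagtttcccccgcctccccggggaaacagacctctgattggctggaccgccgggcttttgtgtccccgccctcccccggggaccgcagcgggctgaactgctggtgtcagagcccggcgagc
PPP1R15A, chr19:48872171-48872420, plus strand: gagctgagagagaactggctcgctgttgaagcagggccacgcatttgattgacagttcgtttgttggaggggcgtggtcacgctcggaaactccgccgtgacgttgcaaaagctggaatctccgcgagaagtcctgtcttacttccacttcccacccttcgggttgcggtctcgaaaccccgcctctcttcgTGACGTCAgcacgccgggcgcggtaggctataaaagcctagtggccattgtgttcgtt
DDIT3, chr12:57520515-57520764, minus strand: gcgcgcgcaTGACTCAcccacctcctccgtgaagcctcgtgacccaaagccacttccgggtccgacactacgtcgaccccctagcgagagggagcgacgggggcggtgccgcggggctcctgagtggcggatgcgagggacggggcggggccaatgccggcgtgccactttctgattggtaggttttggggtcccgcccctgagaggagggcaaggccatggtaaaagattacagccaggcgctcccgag

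The comparison of VENins with VENsens lines asked whether acquired VEN insensitivity came with a changed transcript level of the stress response. None of the 10 genes passed the edgeR test at an adjusted p of 0.05 (0 of 10, against 0.197% of all tested genes), and DESeq2 also called 0 of the 10, with line number as a block (against 1.30% of all tested genes) or without it (4.41%). At an unadjusted p of 0.05, 3 of the 10 were called, namely EIF2AK4, DDIT3 and PPP1R15A, against 16.2% of all tested genes. VENins and VENsens values overlapped for all 10 genes, whereas they did not for 4.66% of all tested genes. With 4 lines per group, leaving out line pair 1 separated the groups for ATF4, DDIT3 and PPP1R15A, against 9.57% of all genes tested without that pair. Leaving out line pair 4 did so for DDIT3 and EIF2AK4, against 10.4%. Without pair 2, 3 or 5 all 10 overlapped, where 6.42%, 8.99% and 10.5% of all genes did not. The direction was the same in 5 of 5 line pairs for 2 genes, DDIT3 and PPP1R15A, against 14.3% of all tested genes. ATF4, DDIT3 and TRIB3 had a log2 fold change above 0 and the other 7 genes below 0. Their median was -0.039, beside 0.0035 over all tested genes. The 95% confidence intervals reached from a 0.771-fold to a 1.26-fold level in VENins lines, so a change beyond those bounds was outside the interval of every member. The smallest count of any of the 10 in a library was 451, for CHAC1, which gives a counting error of 4.71%.

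**Figure D1:**
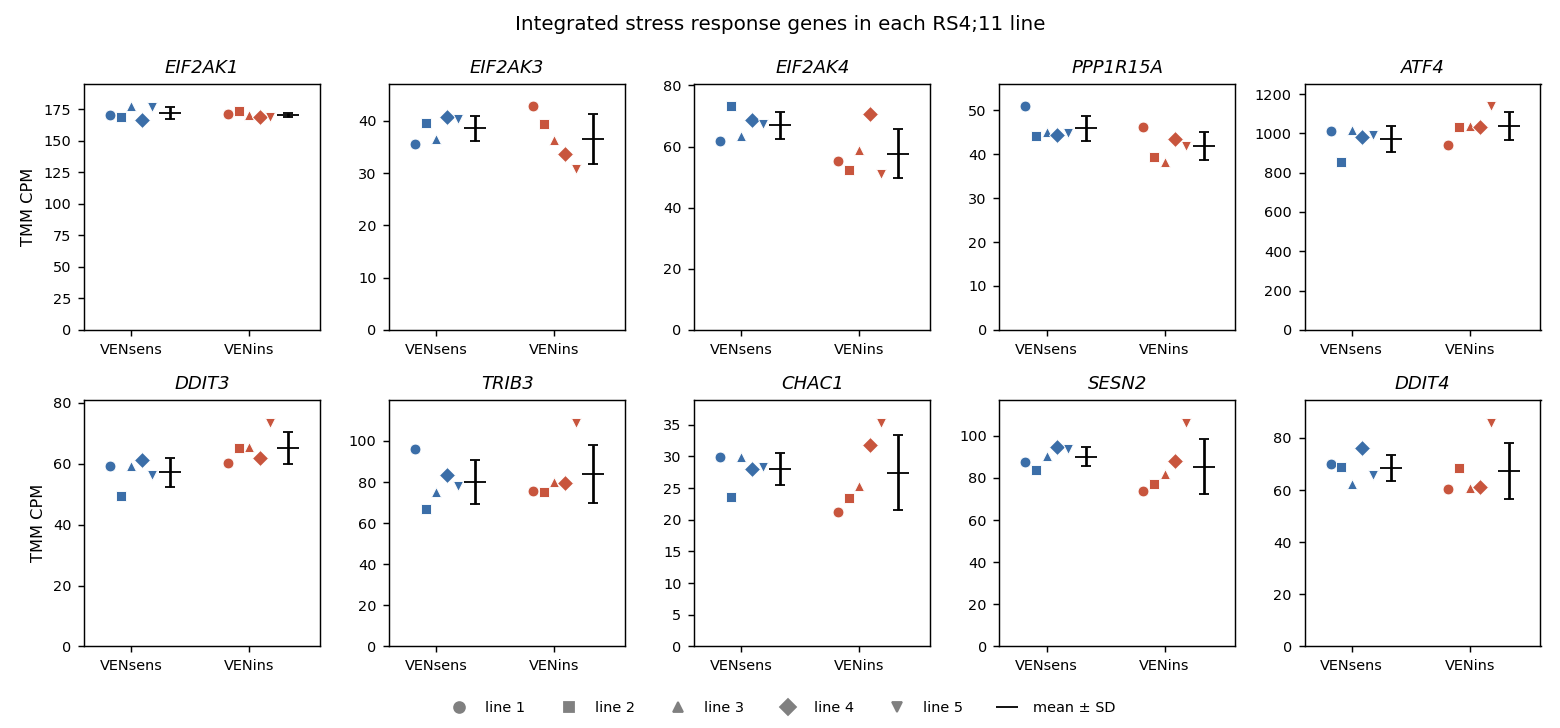
Each panel shows 1 of the 10 genes as CPM after TMM normalization, with a symbol for each of the 5 VENsens (blue) and 5 VENins (red) lines, and the mean ± SD in black. The groups overlap in every panel, and VENins line 5 is the highest of all 10 lines for ATF4, DDIT3, TRIB3, CHAC1, SESN2 and DDIT4.

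EIF2AK1 encodes HRI, which is activated when heme is short and also relays mitochondrial stress through DELE1. It was the steadiest of the 10 genes, at 172 ± 4.85 CPM on average across VENsens lines and 170.4 ± 1.77 CPM across VENins lines (SD, n = 5). Its highest line exceeded its lowest by a factor of 1.07, and its log2 fold change was -0.011 (SE 0.050, 95% confidence interval -0.12 to 0.095), with an edgeR adjusted p of 0.942. EIF2AK3 encodes PERK, the kinase in the membrane of the endoplasmic reticulum. Its CPM were 35.6, 39.6, 36.5, 40.8 and 40.4 in VENsens lines 1 to 5 and 42.8, 39.4, 36.3, 33.7 and 30.7 in VENins lines 1 to 5. VENins line 1 was the highest and VENins line 5 the lowest of all lines, so that the VENins values enclosed all VENsens values. The log2 fold change of EIF2AK3 was -0.084 (SE 0.083, 95% confidence interval -0.26 to 0.094), with an edgeR adjusted p of 0.668, and it was -0.17 without line pair 1, -0.035 without pair 4 and -0.0069 without pair 5. EIF2AK4 encodes GCN2, which binds uncharged tRNA when amino acids run out. Its CPM were 61.9, 73.3, 63.4, 68.7 and 67.5 in VENsens lines 1 to 5 and 55.4, 52.5, 58.7, 70.8 and 51.1 in VENins lines 1 to 5. VENins lines 1, 2, 3 and 5 lay below every VENsens line, whereas VENins line 4 was higher than 4 of the 5 VENsens lines, and the groups therefore overlapped. For this gene, which had the smallest adjusted p of the 10, the log2 fold change was -0.22 (SE 0.073, 95% confidence interval -0.38 to -0.065), with an edgeR adjusted p of 0.168, and VENins was lower in 4 of 5 pairs. EIF2AK2, which encodes the kinase PKR activated by double-stranded RNA and is a paralogue outside the 10 genes, was at 106 ± 5.45 CPM on average across VENsens lines and 102 ± 7.87 CPM across VENins lines (SD, n = 5). All 4 kinase genes had a log2 fold change below 0 and 0 of 4 passed the test. The sign of EIF2AK1 and EIF2AK2 turned positive when the trend of each line on transcript length and GC content was taken out (0.033 and 0.020), and the log2 fold change of EIF2AK3 was then -0.046.

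PPP1R15A encodes GADD34, the stress-induced subunit that brings protein phosphatase 1 to eIF2. CPM of PPP1R15A were 50.9, 44.2, 45.01, 44.3 and 44.8 in VENsens lines 1 to 5 and 46.2, 39.4, 38.2, 43.4 and 41.9 in VENins lines 1 to 5. VENsens line 1 stood above all others, the VENins member of each of the 5 number pairs was the lower one, and VENins line 1 still exceeded VENsens lines 2 to 5. PPP1R15A had a log2 fold change of -0.13 (SE 0.058, 95% confidence interval -0.26 to -0.0092), with an edgeR adjusted p of 0.276.

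ATF4 is the central transcription factor of the response. Its CPM were 1014, 856, 1017, 979 and 993 in VENsens lines 1 to 5 and 939, 1034, 1039.8, 1033 and 1139 in VENins lines 1 to 5. VENins lines 2, 3, 4 and 5 exceeded every VENsens line, and VENins line 1 lay below all VENsens lines but line 2, so that the groups overlapped. The log2 fold change of ATF4 was 0.094 (SE 0.057, 95% confidence interval -0.029 to 0.22), with an edgeR adjusted p of 0.442, and VENins was higher in 4 of 5 pairs. It was 0.15 without line pair 1 and 0.049 without pair 2. DDIT3 encodes CHOP, which is induced by ATF4 and promotes cell death under prolonged stress. Its CPM were 59.1, 49.5, 59.3, 61.3 and 56.4 in VENsens lines 1 to 5 and 60.1, 65.0, 65.5, 61.8 and 73.5 in VENins lines 1 to 5. VENins lines 2, 3, 4 and 5 exceeded every VENsens line, and VENins line 1 lay below VENsens line 4, which closed the gap between the groups. DDIT3 had the highest log2 fold change of the 10 genes, 0.19 (SE 0.068, 95% confidence interval 0.045 to 0.34), with an edgeR adjusted p of 0.190, and VENins was higher in 5 of 5 pairs. Of its exon bases, 31.6% are shared with MARS and MBD6, which lie on the other strand. The strand setting of the counting is not given, but the libraries do not mark strand. Of the reads, 7.29% to 7.78% fell on no feature, beside 52.7% to 54.2% counted on genes. Counting by strand would leave about as many reads on no feature as on genes. With strand ignored, reads on shared bases went to neither gene. The same holds for 41.2% of the exon bases of DDIT4, which lie opposite DDIT4-AS1, at 0 counts in every library. It also holds for 15.1% of the exon bases of EIF2AK3, shared with AC062029.1 and AC104134.1, and 9.59% of those of EIF2AK1, shared with AIMP2. ATF4 shares no exon bases with another gene in the files, but the retrocopies ATF4P3 and ATF4P4 took 302 to 453 and 543 to 806 counts per library beside 17670 to 28882 for ATF4, and the part of reads shared between such copies in these counts was not tested.

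**Figure D2:**
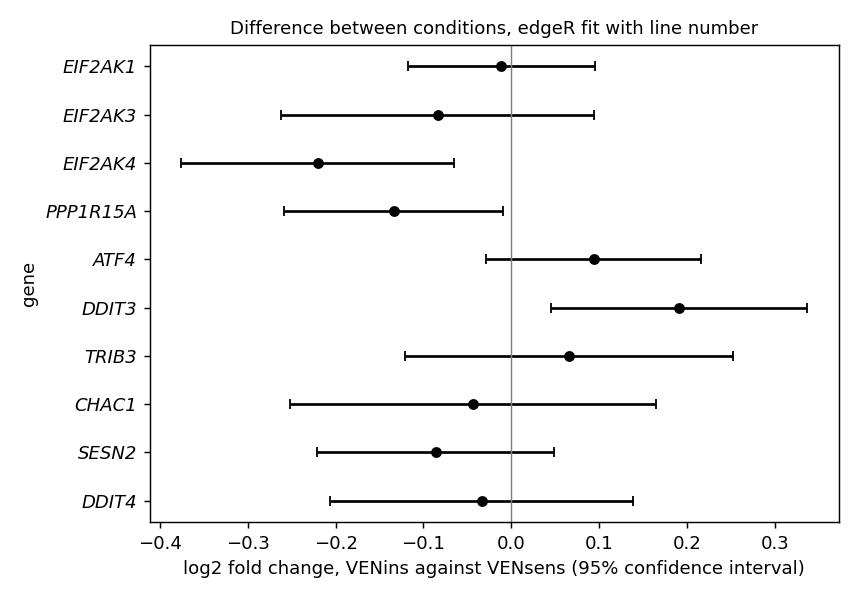
Points give the log2 fold change of each of the 10 genes, VENins against VENsens, and bars the 95% confidence interval from the edgeR fit with line number. The points run from -0.22 for EIF2AK4 to 0.19 for DDIT3, and no gene passed the adjusted threshold.

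TRIB3 encodes a pseudokinase that restrains AKT and feeds back on ATF4 and CHOP. Its CPM were 95.9, 66.9, 75.4, 83.3 and 77.9 in VENsens lines 1 to 5 and 75.6, 74.9, 79.9, 79.7 and 109 in VENins lines 1 to 5. VENins line 5 and VENsens line 1 stood above the other 8 lines, which reached at most 83.3 CPM. For TRIB3 the log2 fold change was 0.066 (SE 0.088, 95% confidence interval -0.12 to 0.25), with an edgeR adjusted p of 0.765, and it was 0.17 without line pair 1, 0.042 without pair 2 and -0.040 without pair 5. CHAC1 degrades glutathione and is transcribed downstream of ATF4 and CHOP. Its CPM were 29.8, 23.6, 29.8, 28.0 and 28.4 in VENsens lines 1 to 5 and 21.2, 23.5, 25.3, 31.8 and 35.3 in VENins lines 1 to 5. Here VENins lines 4 and 5 were above and VENins lines 1 and 2 below all VENsens lines, and the SD was 5.93 CPM in VENins against 2.54 CPM in VENsens lines. CHAC1 had a log2 fold change of -0.044 (SE 0.098, 95% confidence interval -0.25 to 0.16), with an edgeR adjusted p of 0.871.

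SESN2 encodes sestrin 2, a leucine-sensing inhibitor of mTORC1. In each line, the CPM of SESN2 were 87.5, 83.7, 90.4, 94.9 and 93.7 in VENsens lines 1 to 5 and 73.7, 77.0, 81.7, 88.2 and 106 in VENins lines 1 to 5. VENins lines 1, 2 and 3 were below every VENsens line, and VENins line 5 was above all of them. SESN2 had a log2 fold change of -0.086 (SE 0.063, 95% confidence interval -0.22 to 0.049), with an edgeR adjusted p of 0.532, and it was -0.046 without line pair 1 and -0.15 without pair 5. DDIT4 encodes REDD1, which also restrains mTORC1 and responds to hypoxia and glucocorticoids as well. The CPM of DDIT4 were 69.8, 68.8, 62.3, 76.0 and 65.8 in VENsens lines 1 to 5 and 60.6, 68.3, 60.9, 61.4 and 85.9 in VENins lines 1 to 5. VENins line 5 was the highest of the 10 lines, and VENins lines 1, 3 and 4 were the lowest. For DDIT4, the log2 fold change was -0.034 (SE 0.081, 95% confidence interval -0.21 to 0.14), with an edgeR adjusted p of 0.880. Leaving out a line pair turned the sign of CHAC1 without pair 1 (0.065) or 3 (0.0042) and that of DDIT4 without pair 1 (0.0093) or 4 (0.035). Both were farther below 0 without pair 5, at -0.14 for CHAC1 and -0.14 for DDIT4, and with the GC and length trend taken out they were -0.072 and -0.054.

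The lines of 1 condition also differed from each other. The SD of CPM was larger in VENins than in VENsens lines for 9 of the 10 genes, all but EIF2AK1, against 62.1% of all tested genes. Relative to the mean, as the coefficient of variation, it was larger for 7 of the 10, all but EIF2AK1, ATF4 and DDIT3, against 62.3% of all tested genes. These counts depend in part on VENins line 5. Over VENins lines 1 to 4 alone, the range of CPM was narrower than over VENsens lines for ATF4, DDIT3, TRIB3 and DDIT4. For TRIB3 it was 74.9 to 79.9 CPM against 66.9 to 95.9 CPM. It stayed wider for EIF2AK3, EIF2AK4, PPP1R15A, CHAC1 and SESN2. Here 4 lines were set against 5, and a range over fewer lines tends to be narrower. VENsens line 2, the lowest of its condition for ATF4, DDIT3 and TRIB3, was kept. The share of all tested genes without VENins line 5 was not computed. VENins line 5 was the highest of the 10 lines for 6 of the 10 genes, ATF4, DDIT3, TRIB3, CHAC1, SESN2 and DDIT4, and the lowest for EIF2AK3 and EIF2AK4. Relative to the mean of the 10 lines, the median log2 deviation of those 6 genes was 0.31 in VENins line 5, and it was between -0.22 (VENsens line 2) and 0.036 (VENsens line 4) in the other 9 lines. VENins line 1 lay at the other end of its condition, with -0.13 and all 6 genes below their mean. These 6 genes are grouped here because of these values, so the contrast is a description and carries no test.

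VENins line 5 also stood apart across the transcriptome. It held the highest value of 20.3% and the lowest value of 17.7% of all tested genes, and VENsens line 2 held 18.4% and 17.9%. Across 16312 genes, which are not independent replicates, the deviation of VENins line 5 went with the GC content of the longest transcript at a Spearman's rho of 0.541. The rho was 0.350 in VENsens line 1, -0.269 in VENsens line 2 and -0.266 in VENins line 1. Of the 6 genes highest in VENins line 5, the longest transcripts of CHAC1, TRIB3, SESN2, DDIT4 and ATF4 have GC contents of 62.6%, 60.9%, 59.5%, 58.1% and 56.7%, and that of DDIT3 has 49.7%. EIF2AK3 and EIF2AK4, lowest in VENins line 5, have 44.4% and 47.3%, whereas PPP1R15A, at 58.8%, and EIF2AK1, at 46.8%, were neither highest nor lowest there. With the trend on GC content and length taken out of each line, a step chosen after seeing the data, the median deviation of the 6 genes in VENins line 5 was 0.16, with all 6 still above their mean, and that line was the highest for 3 of the 10 genes, DDIT3, TRIB3 and DDIT4. On that scale EIF2AK3, EIF2AK4 and PPP1R15A were lowest in VENins line 5, at -0.20, -0.21 and -0.23. Whether base composition accounts for the levels in this line was not tested.

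**Figure D3:**
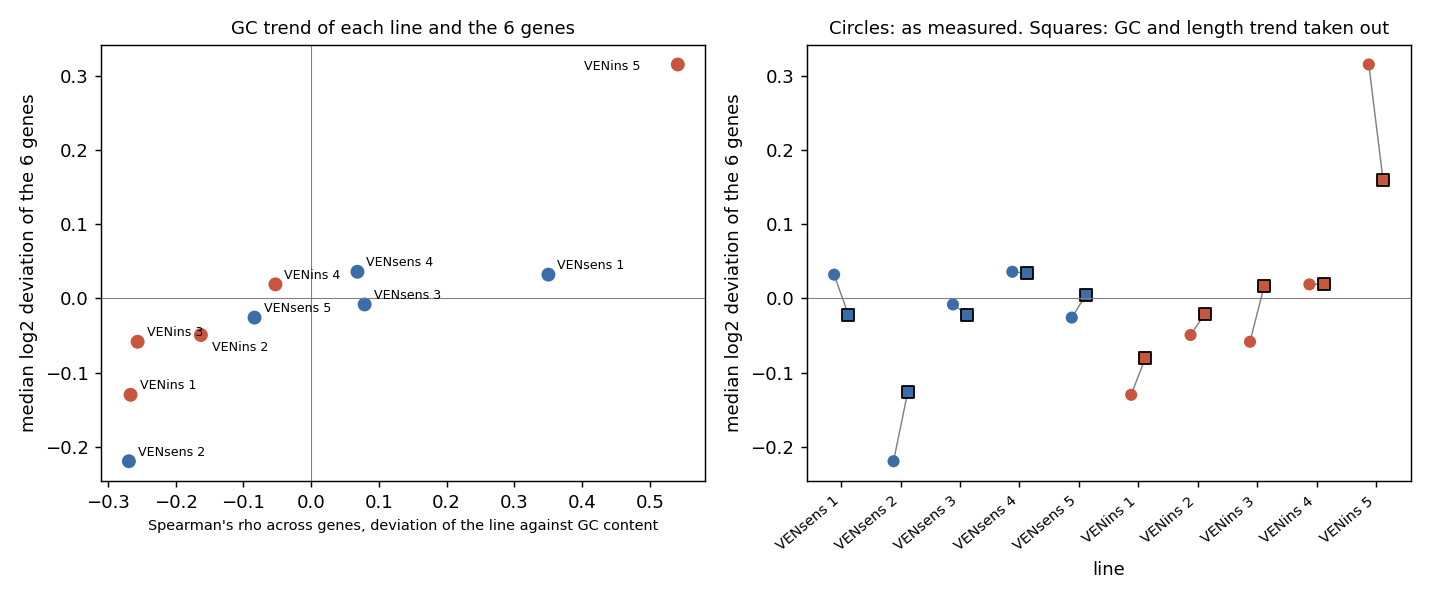
The left panel sets the median log2 deviation of ATF4, DDIT3, TRIB3, CHAC1, SESN2 and DDIT4 in each line against the Spearman's rho between that line's deviation and GC content over 16312 genes, with VENsens in blue and VENins in red. The right panel gives the same median as measured (circles) and with the trend on GC content and length taken out (squares), where VENins line 5 moves from 0.31 to 0.16 and VENsens line 2 from -0.22 to -0.13.

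The genes were then compared with each other over the 10 lines on the log2 CPM scale, in 45 pairs. CHAC1 and SESN2 had a Pearson r of 0.887 (permutation p = 0.000840, 0.0378 adjusted over the 45 pairs) and a Spearman's rho of 0.782 (permutation p = 0.0108, adjusted 0.185). It was the 1 pair past the threshold by Pearson's r, and no pair passed by Spearman's rho. Without VENins lines 1 and 5, the farthest from the median of CHAC1, r was 0.7103 (exact permutation p = 0.0502, adjusted 0.697). The call was thus lost without these 2 lines, with 8 lines left, and leaving out any other 2 was not tested. ATF4 and DDIT3 had an r of 0.908 (permutation p = 0.00229, adjusted 0.0515) and a rho of 0.818 (permutation p = 0.00569, adjusted 0.185), and r was 0.484 without VENsens line 2 and VENins line 5. EIF2AK3 and CHAC1 ran in opposite directions, with an r of -0.818 (permutation p = 0.00400, adjusted 0.0600), a rho of -0.745 (permutation p = 0.0174, adjusted 0.196) and an r of -0.567 without VENins lines 1 and 5. As deviations from the condition mean, CHAC1 and SESN2 had an r of 0.8999 (exact permutation p = 0.00243, adjusted 0.0547), which missed the threshold. Among ATF4, DDIT3, TRIB3, CHAC1, SESN2 and DDIT4, which were grouped for being highest in VENins line 5, so that a positive r between them follows in part from that choice, all 15 pairs had a positive r. Their median was 0.670, beside 0.0971 over all 45 pairs. It was 0.319 without VENins line 5 (12 of 15 positive) and 0.284 (14 of 15 positive) with the GC and length trend taken out, both chosen after seeing the data, and no pair passed the threshold in either case.

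For ATF4, DDIT3, TRIB3 and CHAC1, the protein-coding genes with the most similar pattern were sought among 11137 genes with a mean of at least 1 CPM, as deviations from the condition mean over the 10 lines. For each, Pearson's r, Spearman's rho and Pearson's r without the 2 lines farthest from the median are given in this order. Closest to ATF4 were NDUFB11 (0.990, 0.952 and 0.987), FIBP (0.981, 0.939 and 0.936) and MAD2L2 (0.980, 0.927 and 0.919). Closest to DDIT3 were RPS19BP1 (0.959, 0.915 and 0.907), CDCA4 (0.958, 0.915 and 0.872) and THAP7 (0.953, 0.927 and 0.860). Closest to TRIB3 was OGFR (0.978, 0.879 and 0.906). For CHAC1, the nearest were EGFL7 (0.988, 0.988 and 0.982), AP1B1 (0.985, 1.00 and 0.980) and HMOX2 (0.972, 0.952 and 0.943). None of these 10 genes belongs to the pathway lists, and they are named for their likeness alone, which is the highest of 11137 values and carries no test. The farthest lines were VENsens line 2 and VENins line 1 for ATF4, VENsens line 2 and VENins line 5 for DDIT3, VENins line 5 and VENsens line 1 for TRIB3, and VENins lines 5 and 1 for CHAC1.

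The level of each transcript was compared per kilobase of its merged exons. ATF4 was by far the most abundant, at 387 ± 26.5 in VENsens and 412 ± 28.2 in VENins lines (TMM CPM per kilobase, SD, n = 5). DDIT3 followed at 43.7 ± 3.53 in VENsens and 49.9 ± 3.95 in VENins lines, and DDIT4 at 33.3 ± 2.48 in VENsens and 32.8 ± 5.26 in VENins lines. The kinase gene EIF2AK1 came next, at 30.9 ± 0.873 in VENsens and 30.7 ± 0.318 in VENins lines, SESN2 was at 26.1 ± 1.33 in VENsens and 24.7 ± 3.73 in VENins lines, TRIB3 at 23.3 ± 3.13 in VENsens and 24.4 ± 4.14 in VENins lines and PPP1R15A at 14.8 ± 0.930 in VENsens and 13.5 ± 1.03 in VENins lines. CHAC1 was at 13.6 ± 1.23 in VENsens and 13.3 ± 2.88 in VENins lines, and the kinase genes EIF2AK3 and EIF2AK4 were lowest, at 7.10 ± 0.438 in VENsens and 6.73 ± 0.873 in VENins lines and at 5.598 ± 0.376 in VENsens and 4.83 ± 0.661 in VENins lines. The order was the same in both conditions. Neighbours in it whose mean ± SD overlapped in both conditions were DDIT4 and EIF2AK1, SESN2 and TRIB3, and PPP1R15A and CHAC1. With the length of the longest transcript in place of merged exons, TRIB3 moved ahead of SESN2 and EIF2AK4 ahead of EIF2AK3. The merged exons of EIF2AK4 span 11957 bases in the annotation against 5499 for its longest transcript, so its level per length depends on that choice more than that of any other member. Reads on bases shared with other genes are left out of the counts when strand is ignored. The levels of DDIT4, DDIT3, EIF2AK3 and EIF2AK1 were thus likely too low, and their ranks uncertain.

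**Figure D4:**
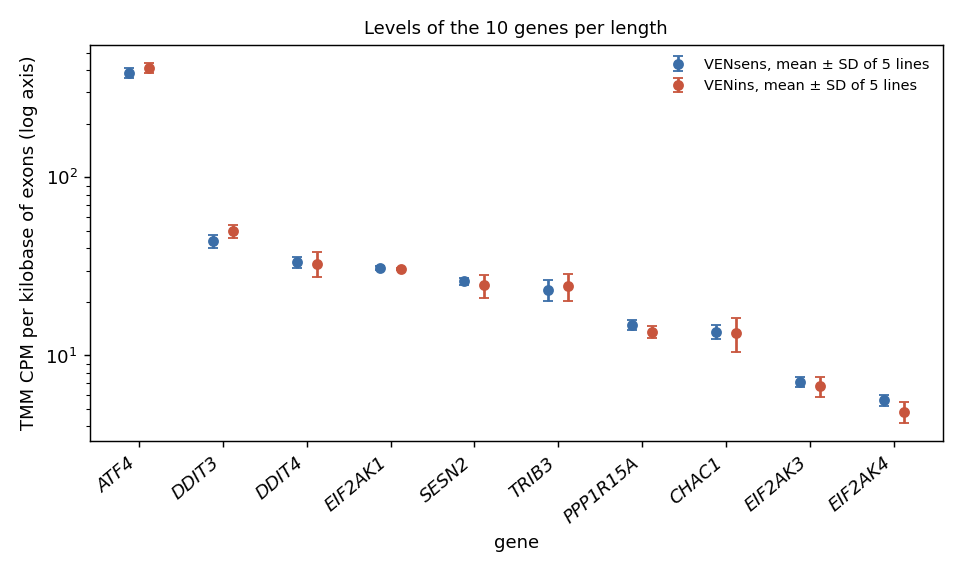
Points show TMM CPM per kilobase of merged exons on a log axis, as the mean ± SD of 5 VENsens (blue) and 5 VENins (red) lines, in the order of the VENsens means. ATF4 lies at 387 in VENsens lines and EIF2AK4, the lowest, at 5.598.

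Around the 10 genes, 103 others of the pathway were examined in lists by role, and 96 of them had enough counts to be tested. None of the 96 passed the edgeR test, against 0.197% of all tested genes, and 20 of them (20.8%) had an unadjusted p under 0.05 (9 with a positive and 11 with a negative log2 fold change), against 16.2%. DESeq2 with line number as a block called 2 of them, NDRG1 and SLC7A1, against 1.30% of all tested genes, and edgeR called 7 with no filter on low counts, against 2.02% of the 32884 genes then tested. With a line pair left out, edgeR called 0 to 2 of them, against 0.0358% to 1.97% of all genes. VENins and VENsens values did not overlap for PRKRA, NDRG1, SLC7A1 and EDEM1 (4.17%), against 4.66%. The log2 fold change was above 0 for 52 of the 96, with a median of 0.0040, and for 51.1% of all tested genes, beside which the counts of each list can be read. Of the 7 that were not tested, NUPR1, FGF21 and VARS1 were listed at 0 in every library, and IMPACT, GDF15, CBS and TRIB2 had at most 4 counts in any library. The tested synthetase genes in the list of VARS1 had at least 2093 counts in every library. Whether the 0 of VARS1 reflects the counting or an absent transcript was not tested.

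The list of ATF4 targets that regulate the stress response, which includes DDIT3, TRIB3, CHAC1, SESN2 and DDIT4, had 13 of 22 tested genes above 0 and a median log2 fold change of 0.063. VENins line 5 was the highest line for 12 of the 22, of which 5 are the genes already grouped for this, against 20.3% of all tested genes. NDRG1, a gene of growth arrest and hypoxia, had CPM of 26.4, 33.3, 25.1, 28.1 and 26.6 in VENsens lines 1 to 5 and 22.1, 23.4, 22.4, 21.9 and 21.6 in VENins lines 1 to 5. All 5 VENins lines were below all 5 VENsens lines, and the log2 fold change was -0.32 (SE 0.070, 95% confidence interval -0.47 to -0.17), with an edgeR adjusted p of 0.0691. That p ranged from 0.00398 to 0.484 over the alternatives, and it passed without the block on line number, in both DESeq2 fits, without the low-count filter and with the GC and length trend taken out. TNFRSF10B, the death receptor DR5 downstream of CHOP, had a log2 fold change of 0.16 and an edgeR adjusted p of 0.188. Of the ATF4 targets for amino acid synthesis and transport, 6 of 22 tested genes were above 0 and 16 below, with a median of -0.045, and VENins line 5 was the highest line for 10. ALDH1L2, a mitochondrial enzyme of folate metabolism, had the largest log2 fold change of the 96 genes in size, and its CPM were 41.3, 36.6, 34.7, 32.6 and 38.6 in VENsens lines 1 to 5 and 9.40, 8.05, 22.8, 41.7 and 11.8 in VENins lines 1 to 5. VENins lines 1, 2, 3 and 5 were below every VENsens line, and VENins line 4 was the highest of all 10. The log2 fold change of ALDH1L2 was -1.19 (SE 0.27, 95% confidence interval -1.77 to -0.61), with an edgeR adjusted p of 0.0792. It was -0.96 without line pair 1, -0.96 without pair 2 and -0.96 without the block. Without line pair 4 it was -1.62 with an edgeR adjusted p of 4.68e-05, within a range of 5.00e-42 to 0.518 over the alternatives. The lowest came without the low-count filter, which left the counts of this gene unchanged and altered the variance estimates shared between genes. That p cannot be read as the spread of ALDH1L2 between lines. SLC7A1, an arginine transporter, and SLC7A11, a cystine transporter, had log2 fold changes of -0.19 and -0.19 with edgeR adjusted p of 0.115 and 0.192. With the GC and length trend taken out, these log2 fold changes were -0.096 and -0.11. SLC7A1 passed the threshold in both DESeq2 fits and without the low-count filter, with adjusted p of 0.00956 to 0.561 over the alternatives.

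In the remaining lists, the 3 genes with the smallest p are given with their log2 fold change and edgeR adjusted p. The bZIP factors, which can form dimers with ATF4 or CHOP and include both, had 8 of 9 genes above 0 and a median of 0.094, led by DDIT3, MAFG (-0.15, adjusted p 0.197) and CEBPG (0.12, adjusted p 0.255). CEBPB had the highest log2 fold change of this list (0.26, adjusted p 0.299). It passed in edgeR without the low-count filter and without line pair 1, and ATF5 (0.18, adjusted p 0.317) passed without that filter. The subunits of eIF2, eIF2B and the phosphatase, PPP1R15A among them, had 10 of 13 above 0 and a median of 0.046, led by EIF2S2 (0.13, adjusted p 0.276), PPP1R15A and PPP1CA (0.11, adjusted p 0.338). Upstream of the kinases, 4 of 7 were above 0, with a median of 0.0043, led by PRKRA (0.13, adjusted p 0.267), GCN1 (-0.097, adjusted p 0.425) and OMA1 (0.086, adjusted p 0.539), and the sign of GCN1 turned with the GC and length trend taken out (0.0024). Genes of tRNA charging and export had 6 of 13 above 0 and a median of -0.0060, led by EPRS1 (-0.15, adjusted p 0.239), IARS1 (-0.077, adjusted p 0.510) and WARS1 (-0.11, adjusted p 0.605), the last at 0.031 without line pair 1. The ATF6 and IRE1 arms, which answer unfolded protein in parallel to PERK, had 13 of 19 above 0 and a median of 0.038, led by SEL1L (-0.25, adjusted p 0.115), EDEM1 (-0.14, adjusted p 0.192) and DNAJB11 (0.15, adjusted p 0.231). SEL1L passed in DESeq2 without the block and in edgeR without the low-count filter (adjusted p 0.0103 to 0.561 over the alternatives), and EDEM1 in DESeq2 without the block (0.0169 to 0.614). With the GC and length trend taken out, the log2 fold change was -0.073 for EDEM1, -0.089 for MAFG, 0.086 for PRKRA, 0.057 for OMA1 and -0.042 for IARS1. Among paralogues of the 10 genes, 4 of 8 were above 0, with a median of -0.026, led by SESN1 (0.32, adjusted p 0.129), DDIT4L (-0.36, adjusted p 0.231) and CHAC2 (0.20, adjusted p 0.280). SESN1, a relative of SESN2 under control of p53, passed in DESeq2 without the block, without the low-count filter and without line pair 4 (in the last case log2 fold change 0.43, edgeR adjusted p 0.00807, within a range of 0.000252 to 0.564 over the alternatives). Its log2 fold change was lowest without line pair 1, at 0.21. Leaving out 1 line pair also moved PPP1CA to 0.071 (without pair 5), OMA1 to 0.048 (pair 3), IARS1 to -0.038 (pair 2), DDIT4L to -0.24 (pair 2) and WARS1 to -0.19 (pair 5).

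**Figure D5:**
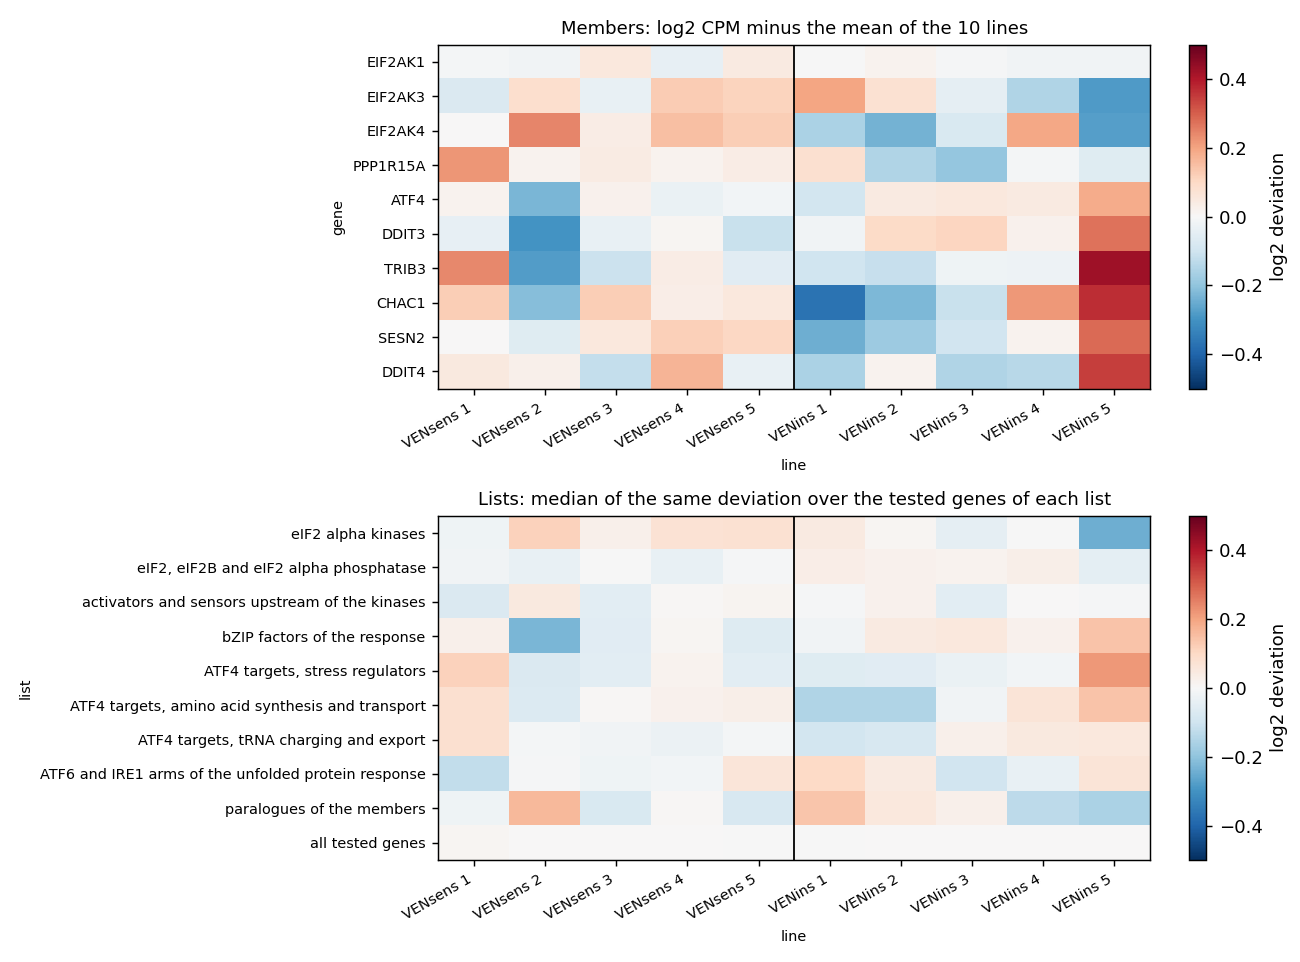
Colours give the log2 deviation from the mean of the 10 lines, in the upper panel for each of the 10 genes and in the lower panel as the median over the tested genes of each list, with VENsens lines to the left of the black line and VENins lines to the right. VENins line 5 reaches a median of 0.22 for stress regulators (22 genes) and -0.24 for the eIF2 alpha kinases (4 genes). The median over all tested genes is close to 0 in every line, which TMM normalization largely brings about, so it is no background for these values.

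Markers of the labelled cell type were abundant in sum. DNTT among them was scarce, from 1.08 CPM in VENins line 1, its lowest, to 27.3 CPM in VENins line 4, its highest. The 10 B-cell precursor markers summed to 3737, 3703, 3634, 3732 and 3709 CPM in VENsens lines 1 to 5 and to 3593, 3653, 3623, 3558 and 4016 CPM in VENins lines 1 to 5, so that VENins line 5 was the highest, and IGLL1 was the most abundant of them. FLT3 led the 4 markers of KMT2A-rearranged leukemia, whose sum was 612 to 674 CPM. T-cell markers summed to at most 1.08 CPM (most abundant CD3E) and stromal markers to 3.34 CPM (COL1A1, with DCN at 0). Myeloid markers reached 7.41 to 12.6 CPM with VENins line 5 the highest, and CSF1R was the most abundant of them. PAX5, a factor that maintains B-cell identity, was the only marker in these B-cell precursor, leukemia, T-cell, stromal and myeloid lists to pass the edgeR test, at CPM of 782, 827, 713, 804 and 790.1 in VENsens lines 1 to 5 and 632, 584, 615, 676 and 647 in VENins lines 1 to 5. All VENins lines were below all VENsens lines, and the log2 fold change was -0.31 (SE 0.053, 95% confidence interval -0.43 to -0.20), with an edgeR adjusted p of 0.0272. The call was lost without line pair 2, 3 or 5 (edgeR adjusted p 0.242, 0.0597 and 0.0647, within a range of 1.24e-06 to 0.242 over the alternatives), and the log2 fold change was negative in all 13. The part of PAX5 or of the markers highest in VENins line 5 in the levels of the stress response genes was not tested.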

How the data were processed

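Per the labels, total RNA of 10 RS4;11 lines was made into libraries with a kit that does not mark strand. The authors deposited raw counts of single-end reads per Ensembl gene. Their processing notes name bcl2fastq 2.20.0.422, Bowtie2 2.3.5.1, SAMtools 1.9 and HTSeq 0.9.1 with hg19 and GRCh37, and the annotation release and the strand setting are not given in the sources used here. The 5 summary lines per file stayed out of library sizes; between 52.7% and 54.2% of 38491516 to 52960365 reads were counted on genes and up to 26.2% had low alignment quality. Symbols, lengths and GC content came from GENCODE 29 (GRCh38), so no gene coordinates are given beyond RefSeq promoters.

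Genes were kept by filterByExpr (minimum count 10, minimum total 15), normalized by TMM and tested in R 4.3.3 with edgeR 4.0.16 (quasi-likelihood F test, line number plus condition, as the study paired the lines) and Benjamini-Hochberg adjustment over all tested genes at 0.05. Log2 CPM used a prior count of 2. Correlations used 100000 permutations, two-sided (Python 3.11.15, numpy 2.4.6). DESeq2 1.42.0, other normalizations and filters, a spline on length and GC content and left-out line pairs were tried as alternatives. Genes named were the 10 members, in each list the genes called or else the 3 with the smallest p, the leading markers, and the genes most similar to 4 members (up to 3 each). CEBPB and ATF5 are also named, for calls under an alternative, and DNTT for its low level. Members and lists were chosen with earlier results of these data known. Lines of 1 condition differed beyond counting error, and p-values measure the spread between lines raised from 1 cell line. In the fit without the low-count filter, variance estimates are also shared with genes at few counts, so its calls are not read as support.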

Additional observations from a re-analysis of the deposited data

Results flagged for a closer look

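Dixon's ratio is the gap between an extreme line and the nearest line, over the range of the 5 lines of a condition. It passed 0.71 in 8 of 66 sets of values, 4 of them for the 10 genes. For CHAC1, EIF2S2 and EIF2AK2 it was 0.711, 0.713 and 0.722, close to that limit. The nominal rate of 1 in 20 would give 3.3 sets. The share over all tested genes was not computed. VENsens line 2 and VENins line 5 held the highest value of 18.4% and 20.3% of all tested genes, so the nominal rate is not the background of these genes. Among the 10 genes, ATF4 in VENsens line 2 was lowest at 856 CPM (979 in the nearest line), and CHAC1 in the same line was lowest at 23.6 CPM (28.0 in the nearest line). TRIB3 in VENins line 5 was highest at 109 CPM (79.9 in the nearest line), and PPP1R15A in VENsens line 1 was highest at 50.9 CPM (45.01 in the nearest line). In the wider lists, VENsens line 2 was highest for EIF2AK2 at 115 CPM (105 in the nearest line) and lowest for EIF2S2 at 122 CPM (126 in the nearest line). WARS1 in VENsens line 1 was highest at 547 CPM (393 in the nearest line), and CHAC2 in VENins line 5 was lowest at 8.58 CPM (11.2 in the nearest line). VENsens line 2 accounts for 4 of the 8 and had 20631907 counts on genes, the fewest of the 10 libraries.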

How the results depend on the processing

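No member was called under any of 13 alternatives (lowest adjusted p 0.0582). Over all genes, 33 were called with line number as a block and 149 without the block, 217 by DESeq2 with and 739 without it, 664 with no filter on low counts, 156 with the length and GC trend taken out, and 6 to 331 with a line pair left out. Of the wider lists these settings called 1, 2, 5, 7, 1 and 0 to 2 genes, against 0. Deviations of VENins and VENsens lines of the same number correlated at -0.103 to 0.028, and 0 of 5 matched best with their own number, so the block rests on the study's paired analysis alone.

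Of 130 alternative fold changes of members, 123 kept their direction and 7 reversed. With the length and GC trend taken out, the log2 fold change was 0.033 for EIF2AK1, 0.020 for EIF2AK2 and 0.0024 for GCN1. With each line pair left out it ran from -0.023 to 0.0014 for EIF2AK1, -0.040 to 0.17 for TRIB3, -0.14 to 0.065 for CHAC1, -0.14 to 0.035 for DDIT4 and -0.19 to 0.031 for WARS1. Of 299 for 23 other genes, those with the smallest p in the pathway lists and PAX5, 277 kept direction and call, 16 passed the threshold, 3 (PAX5) no longer did and 3 reversed.

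Members without overlap were 0, and 2 had 1 direction in 5 of 5 pairs; with a pair left out 0 to 3 did not overlap. The 1 pair of members called by Pearson's r was 0 pairs by Spearman's rho, within condition, without the 2 farthest lines and, chosen after seeing the data, without VENins line 5 or the trend. Members highest in VENins line 5 were 6, and 3 without the trend. Level per length moved by over 1 SD in 17 of 20 values with the longest transcript. The cause of these changes was not tested.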
